A study of Mus musculus with 6 samples.

Results

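This report describes 10 genes of the Nodal and Activin pathway in mouse pluripotent cells as they left the naive state. The genes are Nodal, Tdgf1, Cfc1, Acvr1b, Acvr2b, Lefty1, Lefty2, Smad7, Pcsk6 and Furin. They were chosen by name for their role in the pathway, with earlier results of these data known. They are 10 of the 24736 genes in the expression table, and all 10 had enough reads to be tested.

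Nodal and the activins are secreted ligands of the TGF-beta superfamily. They are made as precursors that proprotein convertases such as furin and PACE4 (Pcsk6) cleave, and they bind activin receptors of type I (Acvr1b) and type II (Acvr2b) on the cell surface. Nodal also needs a co-receptor of the EGF-CFC family, Cripto (Tdgf1) or Cryptic (Cfc1), which activin does not. The receptors phosphorylate SMAD2 and SMAD3, which join SMAD4 and act on DNA with partners such as FOXH1. Among the genes that this signal induces are its own inhibitors Lefty1, Lefty2 and Smad7, and Nodal itself, so that their RNA is commonly read as a measure of signalling. In the mouse embryo, Nodal signalling maintains the epiblast and patterns it before and during gastrulation.

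RNA was sequenced from WT cells of 1 line, the XY line HM1 TetON, in 2 states with 3 biological replicates each. Embryonic stem cells (ESCs, 0 h) grew on mitotically inactivated fibroblast feeders in medium holding 10% serum and LIF at 1000 U/ml. Epiblast-like cells (EpiLCs, 48 h) were the same cells after removal of feeders by adhesion and culture in serum-free N2B27 with bFGF at 10 ng/ml and LGK974 at 5 µM, an inhibitor of WNT secretion (FL medium). Genotype is therefore shared, while time, serum, LIF, feeders, bFGF and the WNT secretion inhibitor all differ between the groups and cannot be told apart. No activin and no Nodal inhibitor is named in either medium. Values are given in TPM, a share of all transcripts, which allow levels to be compared between genes because they are scaled to transcript length. Differences are log2 fold changes of EpiLCs over ESCs from edgeR's quasi-likelihood test on read counts, with p-values adjusted over all 14468 genes tested and called at an adjusted p of at most 0.05.

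The libraries held between 16967741 and 35096210 counts. Each library was checked against marker genes. All 9 naive markers were lower and all 6 formative markers higher in EpiLCs, and Pou5f1 was present throughout (1237 to 1574 TPM). Markers of fibroblasts, the cell type of the feeders, summed to 295, 1469 and 104 TPM over the ESC libraries in the order of their numbers and to between 82.1 and 90.0 TPM in the EpiLC libraries. Of the 12 fibroblast markers, 4 were lower in EpiLCs, and Fap and Lum were at or near 0 in every library. The largest parts of the EpiLC sums were Acta2 (16.8 to 48.9 TPM) and Thy1 (20.1 to 23.8 TPM), and neither passed the test. Col1a1, which did, stood at 90.5, 489 and 28.3 TPM in ESCs and at 6.63, 13.9 and 3.08 TPM in EpiLCs. Markers of primitive endoderm, which can arise in ESC cultures, summed to 74.2, 49.9 and 41.0 TPM in ESCs. In EpiLCs they summed to between 11.9 and 12.5 TPM, and 7 of the 10 were lower. The largest fall was that of Gata6 (log2 fold change -4.63, edgeR, adjusted p = 2.14e-04). Amn went the other way and was higher, at low levels (means of 0.27 TPM in ESCs and 0.79 TPM in EpiLCs, log2 fold change 1.43, edgeR, adjusted p = 0.0199). Markers of the primitive streak summed to 557, 228 and 186 TPM in ESCs, to 11.0 and 10.2 TPM in the EpiLC libraries numbered 1 and 2 and to 61.6 TPM in EpiLC replicate 3, where T stood at 30.7 TPM against 0.870 and 0.690. ESC replicate 2, by its fibroblast markers, and EpiLC replicate 3 and ESC replicate 1, by their streak markers, thus stood apart from the other libraries of their groups. The part of these markers in the falls described below was not tested. Fewer cells that use a gene and less of its RNA per cell cannot be told apart in bulk samples.

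Of the 10 genes, 7 were lower in EpiLCs and 0 were higher (edgeR; also 0 at an unadjusted p under 0.05 and 0 with DESeq2). The genes that fell were the ligand Nodal, both co-receptors, both Lefty antagonists, Smad7 and the convertase Pcsk6. Those that did not pass the test were both receptors and Furin. Across all genes tested, 22.8% were lower and 22.6% were higher, 45.4% in either direction. All 7 also fell by more than 1 on the log2 scale, as did 11.5% of all genes tested. The median log2 fold change was -3.27 over the 10 genes, against 0.00 over all genes tested (-0.0017). As the 10 genes were chosen with earlier results known, these shares and medians are a description and not a test.

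**Figure D1:**
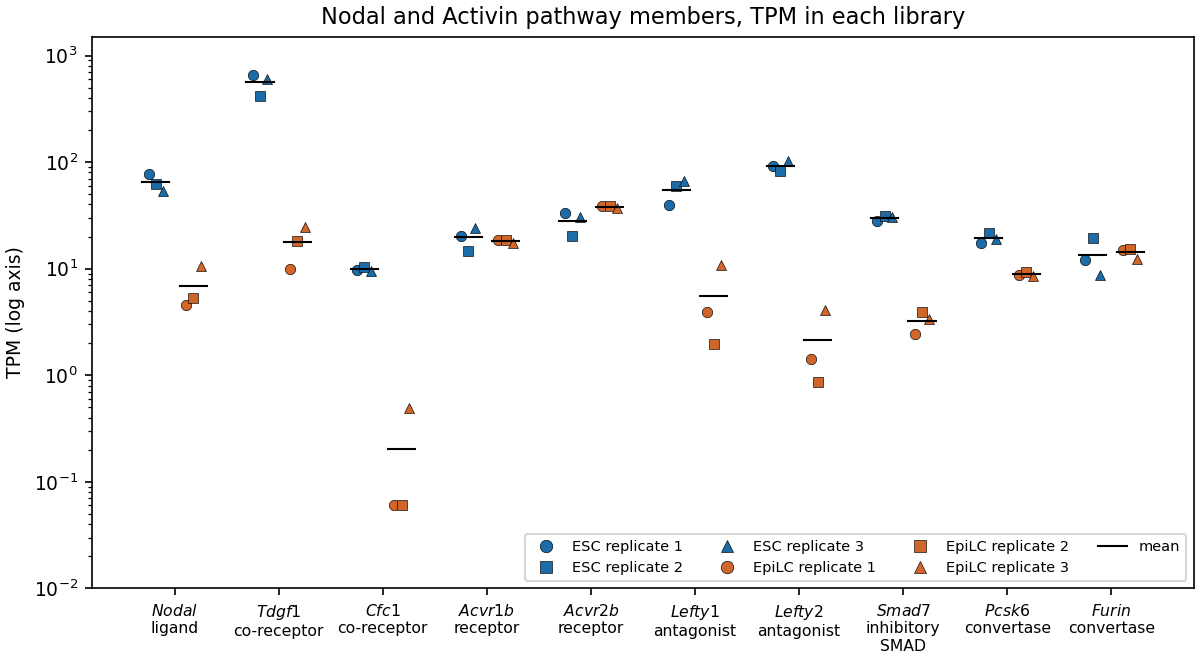
TPM of the 10 genes in each library, on a log axis, ordered by role in the pathway, with ESC replicates in blue, EpiLC replicates in orange and a bar at each mean (n = 3). The ESC and EpiLC points overlap for Acvr1b and Furin. EpiLC points lie above ESC points for Acvr2b, which did not pass the test, and below them for the other genes.

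Nodal is the ligand of the pathway in the early embryo (chr10:61417972-61425338 on mm10). In the order of the replicate numbers, the ESC libraries held 77.2, 62.6 and 53.9 TPM and the EpiLC libraries 4.59, 5.33 and 10.7 TPM. Every EpiLC library was below every ESC library, and EpiLC replicate 3 was the highest of its group. The means were 64.6 ± 11.8 TPM (SD, n = 3) in ESCs and 6.87 ± 3.32 TPM (n = 3) in EpiLCs. The log2 fold change was -3.28 (standard error 0.34, edgeR, adjusted p = 5.35e-04), so that Nodal was 9.74-fold higher in ESCs. Without EpiLC replicate 3 the log2 fold change was -3.75 (edgeR, adjusted p = 5.20e-04). ESC replicate 1, the ESC library with the most streak RNA, had the most Nodal of its group, and without it the log2 fold change was -3.15 (edgeR, adjusted p = 0.00263).

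The co-receptor Tdgf1 (chr9:110939608-110946158) was the most abundant of the 10 genes in ESCs. Its level was 653, 416 and 607 TPM in the ESC libraries, with the lowest value in ESC replicate 2, and 10.0, 18.3 and 24.8 TPM in the EpiLC libraries. The groups did not overlap, and Tdgf1 fell from 558 ± 126 TPM to 17.7 ± 7.41 TPM (SD, n = 3 each). Its log2 fold change was -5.03 (standard error 0.37, edgeR, adjusted p = 1.73e-04). Only 0.601% of the genes tested had a lower log2 fold change. The second co-receptor, Cfc1 (chr1:34535648-34544311), was low from the start, at 9.69, 10.4 and 9.41 TPM in ESCs, which rested on 99, 81 and 125 reads. In EpiLCs it was at 0.0600, 0.0600 and 0.490 TPM, from 1, 1 and 7 reads. The log2 fold change of Cfc1 was -5.61 (standard error 0.59, edgeR, adjusted p = 5.55e-04). With so few reads the size of this fall is poorly known. Reads pooled over the libraries of each group gave a ratio of ESCs to EpiLCs of 50.0, with an exact 95% interval of 26.0 to 110 that covers counting error only. Without EpiLC replicate 3, which held 7 of the 9 EpiLC reads, the log2 fold change was -7.13.

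The stretches of DNA before the starts of these 3 genes are shown because the ligand and both of its co-receptors fell together. Each is the 250 bases upstream of the RefSeq start on GRCm38.p6, written 5′ to 3′ on the strand of the gene, and none overlaps an annotated exon. Capitals mark matches to 5 short motifs searched on both strands, namely FOXH1 (AATNCACA), SMAD (CAGAC), GC-rich SMAD (GGCGC), SOX (ACAANG) and TCF/LEF (CTTTGATC). A match to GGCGC can overlap a match to itself on the other strand.

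Nodal, chr10:61417722-61417971, plus strand: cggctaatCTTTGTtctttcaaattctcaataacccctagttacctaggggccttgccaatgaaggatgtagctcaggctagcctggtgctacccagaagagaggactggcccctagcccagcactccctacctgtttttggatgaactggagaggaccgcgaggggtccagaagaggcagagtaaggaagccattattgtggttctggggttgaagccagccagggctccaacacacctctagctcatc
Tdgf1, chr9:110946159-110946408, minus strand: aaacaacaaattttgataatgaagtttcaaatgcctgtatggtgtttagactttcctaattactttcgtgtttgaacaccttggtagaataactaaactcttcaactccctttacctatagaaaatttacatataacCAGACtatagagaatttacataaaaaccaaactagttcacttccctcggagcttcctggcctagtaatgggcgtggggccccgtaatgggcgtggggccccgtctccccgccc
Cfc1, chr1:34535398-34535647, plus strand: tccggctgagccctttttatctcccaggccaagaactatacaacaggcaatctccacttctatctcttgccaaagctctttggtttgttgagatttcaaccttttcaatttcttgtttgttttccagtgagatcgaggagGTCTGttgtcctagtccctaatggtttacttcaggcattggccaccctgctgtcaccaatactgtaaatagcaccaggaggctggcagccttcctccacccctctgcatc

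The Nodal stretch held 1 match, to the SOX motif on the reverse strand, 242 to 237 bases before the start. The Tdgf1 stretch held 1 match to CAGAC, 113 to 109 bases before the start, and the Cfc1 stretch held 1 match to the same motif on the reverse strand, 110 to 106 bases before the start. These letters are common. Among 32851 promoter windows of this length, 42.2% held CAGAC, 36.3% ACAANG, 32.0% GGCGC, 3.18% AATNCACA and 0.800% CTTTGATC. Promoter entries matched 7 of the 10 genes, in 8 windows since Furin has 2. Of these windows 5 held CAGAC, 4 held GGCGC, 2 held ACAANG and 0 held AATNCACA or CTTTGATC. Smad7, Lefty1 and Lefty2 had no entry.

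Neither receptor passed the test over all 6 libraries. Acvr1b encodes ALK4, the type I receptor of Nodal and activin (chr15:101174072-101213684). It stood at 20.3, 14.8 and 24.1 TPM in ESCs and at 18.4, 18.8 and 17.4 TPM in EpiLCs, and the groups overlapped. The log2 fold change was -0.17 (95% confidence interval -0.58 to 0.24, edgeR, adjusted p = 0.447). Acvr2b encodes a type II activin receptor (chr9:119401583-119442148). It was measured at 33.5, 20.2 and 30.8 TPM in ESCs and at 39.1, 38.4 and 36.9 TPM in EpiLCs. All 3 EpiLC values of Acvr2b lay above the ESC values, but the difference did not pass the test (log2 fold change 0.38, interval -0.03 to 0.80, edgeR, adjusted p = 0.111).

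Both receptors were lowest in ESC replicate 2, the library with the highest fibroblast markers. Without it both passed the test in opposite directions. Acvr1b then had a log2 fold change of -0.34 (edgeR, adjusted p = 0.0290) and Acvr2b one of 0.19 (edgeR, adjusted p = 0.0346). With EpiLC replicate 3 left out as well, Acvr1b had an adjusted p = 0.0781 and Acvr2b an adjusted p = 0.0502 (edgeR). The part of the fibroblast markers in this was not tested. All of these differences were small. The lower end of the interval for Acvr1b over all 6 libraries, -0.58, lies far from the falls of the ligand and the co-receptors.

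Lefty1 and Lefty2 encode secreted antagonists that bind Nodal and its co-receptors, and they are textbook targets of the signal that they limit. They are neighbours on chromosome 1 (chr1:180935022-180938401 for Lefty1, chr1:180893108-180899107 for Lefty2). Their coding sequences are both 1104 bases long, and 1014 of those bases (91.8%) are identical, so that part of the reads cannot be given to one gene or the other.

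The part of the coding sequence that differs most lies in exon 1, in coding bases 34 to 93 (GENCODE vM21 transcripts, GRCm38). It is shown for both genes with the 18 differing bases in capitals, since reads from here name their gene.

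Lefty1, chr1:180935143-180935202, plus strand: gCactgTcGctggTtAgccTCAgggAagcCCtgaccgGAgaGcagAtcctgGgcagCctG
Lefty2, chr1:180893217-180893276, plus strand: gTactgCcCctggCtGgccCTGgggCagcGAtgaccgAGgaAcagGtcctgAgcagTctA

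Reads were 76 nt long, and of all windows of that length in the transcripts, 169 occur in both genes. They make up 10.9% of the windows of Lefty1 and 7.05% of those of Lefty2. The counts showed this sharing directly. The deposited counts of all 8 other genes were whole numbers in every library, whereas those of Lefty1 and Lefty2 were not, and they added up to a whole number in each of the 6 libraries.

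Lefty1 was expressed at 39.5, 59.4 and 66.5 TPM in ESCs and at 3.96, 1.95 and 10.8 TPM in EpiLCs. It fell by 3.36 on the log2 scale (standard error 0.59, edgeR, adjusted p = 0.00425). Lefty2 was expressed at 91.2, 82.2 and 103 TPM in ESCs and at 1.41, 0.860 and 4.10 TPM in EpiLCs. It fell by 5.51 (standard error 0.53, edgeR, adjusted p = 4.25e-04). For both genes the groups did not overlap, and EpiLC replicate 3 was the highest EpiLC library. Without that library the log2 fold changes were -4.27 for Lefty1 and -6.40 for Lefty2 (edgeR, adjusted p = 0.00200 and adjusted p = 3.26e-04). Summed over both genes, which no division of shared reads can alter, there were 2971, 2346 and 4831 counts in ESCs and 160, 82 and 392 counts in EpiLCs. The sum fell by 4.54 on the log2 scale (edgeR, adjusted p = 0.00115).

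The balance within the pair changed sides. Lefty1 made up 30.2%, 41.9% and 39.2% of the summed TPM of the pair in the ESC libraries. In the EpiLC libraries its share was 73.7%, 69.4% and 72.5%. Lefty2 was thus the more abundant gene in every ESC library and Lefty1 in every EpiLC library. The plain ratio of Lefty1 to Lefty2 was 0.433, 0.722 and 0.644 in the ESC libraries and 2.81, 2.27 and 2.64 in the EpiLC libraries. On the log2 scale, with 0.1 TPM added to each gene, the group means of the ratio differed by 2.07. An exact two-sided permutation test gave p = 0.10, the smallest value that 3 against 3 libraries allow, and 0.20 after adjustment over 6 ratios. The ratio rests on the division of shared reads and, in EpiLC replicate 2, on 33.27 counts of Lefty2. With 1 TPM added in place of 0.1 TPM, the group means of the log2 ratio differed by 1.73.

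Smad7, an inhibitory SMAD that blocks the type I receptors of the TGF-beta superfamily and is itself induced by SMAD signals, also fell. It stood at 27.7, 31.1 and 30.2 TPM in ESCs and at 2.42, 3.89 and 3.34 TPM in EpiLCs. The groups were far apart, with means of 29.7 ± 1.76 and 3.22 ± 0.743 TPM (SD, n = 3). ESC replicate 2 was 1.07-fold above the mean of the other ESC libraries and EpiLC replicate 3 was 1.06-fold above that of the other EpiLC libraries. The log2 fold change was -3.26 (standard error 0.17, edgeR, adjusted p = 7.56e-05). This adjusted p was the lowest of the 10 genes. Smad7 had 178, 274 and 215 counts in the EpiLC libraries.

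Of the convertases, Pcsk6 fell and Furin did not pass the test. Pcsk6 encodes PACE4 (chr7:65862136-66050386) and stood at 17.3, 21.6 and 19.0 TPM in ESCs and at 8.66, 9.35 and 8.62 TPM in EpiLCs. Without overlap between the groups it fell by 1.17 on the log2 scale (standard error 0.10, edgeR, adjusted p = 3.12e-04), which made it 2.25-fold higher in ESCs. Furin (chr7:80389194-80405441) stood at 12.1, 19.2 and 8.67 TPM in ESCs and at 14.9, 15.4 and 12.4 TPM in EpiLCs. The ESC values of Furin enclosed all 3 EpiLC values, with the highest in ESC replicate 2. Its log2 fold change was 0.04 (interval -0.59 to 0.67, edgeR, adjusted p = 0.916), and its sign changed when ESC replicate 1, ESC replicate 3 or EpiLC replicate 2 was left out. Furin is also made by fibroblasts, and whether the feeders contributed to its level was not tested. The log2 ratio of Pcsk6 to Furin was 0.60 ± 0.48 in ESCs and -0.67 ± 0.13 in EpiLCs (SD, n = 3), with no overlap (exact permutation test, p = 0.10, adjusted 0.20). Pcsk6 was therefore the higher of the pair in all 3 ESC libraries and Furin in all 3 EpiLC libraries.

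**Figure D2:**
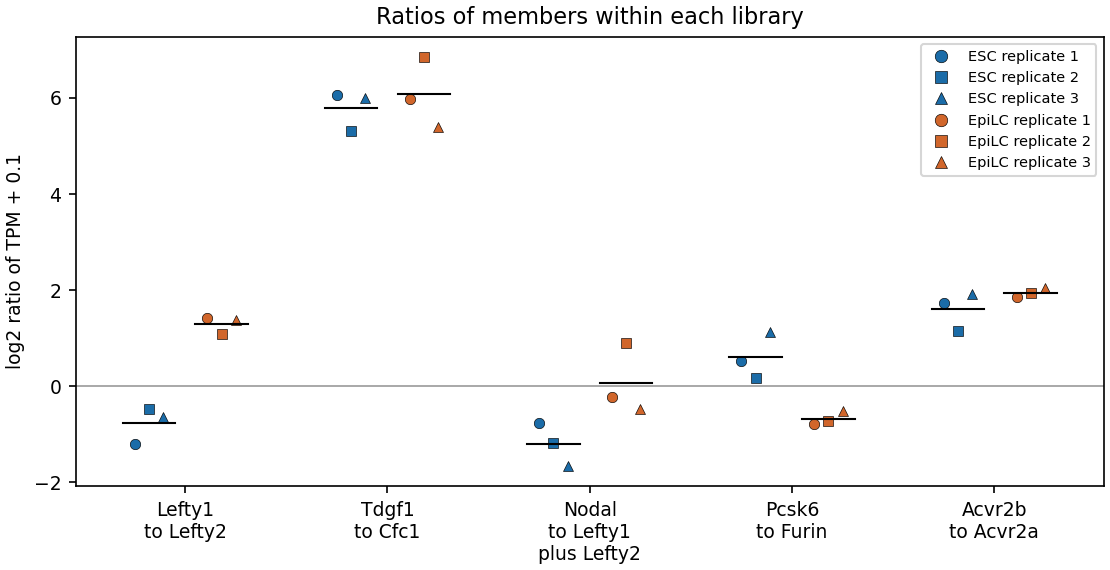
Log2 ratios of TPM between pairs of pathway genes within each library, with 0.1 TPM added to each gene, for ESC replicates (blue) and EpiLC replicates (orange), with bars at the means (n = 3) and a line at equal levels. Lefty1 to Lefty2 moves from below to above 0, Pcsk6 to Furin from above to below 0, and the points for Tdgf1 to Cfc1 and Acvr2b to Acvr2a overlap.

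The balance of the ligand and its antagonists was read as a ratio within each library. The ratio of Nodal to the sum of Lefty1 and Lefty2 was 0.591, 0.442 and 0.318 in the ESC libraries and 0.855, 1.90 and 0.716 in the EpiLC libraries. The groups did not overlap, with means on the log2 scale of -1.20 ± 0.45 and 0.07 ± 0.73 (SD, n = 3; exact permutation test, p = 0.10, adjusted 0.20). In ESCs each library held more Lefty than Nodal TPM, while in EpiLCs this held for replicates 1 and 3 and not for replicate 2. The ratio of Tdgf1 to Cfc1 overlapped between the groups (exact permutation test, p = 0.60), and the few reads of Cfc1 in EpiLCs make it depend on the value added. With 1 TPM in place of 0.1 TPM the difference of the log2 ratios turned from 0.29 to -1.77.

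The order of the 10 genes by level changed between the states. In ESCs it ran from Tdgf1 (558 TPM) over Lefty2 (92.2), Nodal (64.6), Lefty1 (55.1), Smad7 (29.7), Acvr2b (28.2), Acvr1b (19.7), Pcsk6 (19.3) and Furin (13.3) to Cfc1 (9.82). Tdgf1 stood above Lefty2 and Lefty2 above Nodal without overlap of their ranges, and Lefty1 above Smad7 likewise, while Nodal and Lefty1 overlapped, as did each pair of neighbours from Smad7 down to Cfc1. In EpiLCs the receptors led, with Acvr2b (38.1 TPM) first and without overlap, followed by Acvr1b (18.2), Tdgf1 (17.7) and Furin (14.25), whose ranges overlapped one after the other. Pcsk6 (8.88), Nodal (6.87), Lefty1 (5.58), Smad7 (3.22) and Lefty2 (2.12) came next, again with overlapping neighbours, and Cfc1 (0.203) was last and apart. The receptor Acvr2b, below Nodal in every ESC library, was thus above it in every EpiLC library.

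The library that was highest for a gene also differed by role. EpiLC replicate 3 was the highest EpiLC library for 5 genes, namely Nodal, Tdgf1, Cfc1, Lefty1 and Lefty2. Relative to the mean of EpiLC replicates 1 and 2 it was 2.15-fold higher for Nodal, 1.75-fold for Tdgf1, 8.17-fold for Cfc1, 3.66-fold for Lefty1 and 3.61-fold for Lefty2. For Smad7 this ratio was 1.06, and for the receptors and convertases it lay between 0.818 and 0.957. In the same library T was 39.4-fold and Nanog 3.29-fold above the mean of the other EpiLC libraries. Whether a common set of cells carried these transcripts was not tested. The 7 genes were lower with EpiLC replicate 3 left out, with ESC replicate 2 left out and with both left out.

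**Figure D3:**
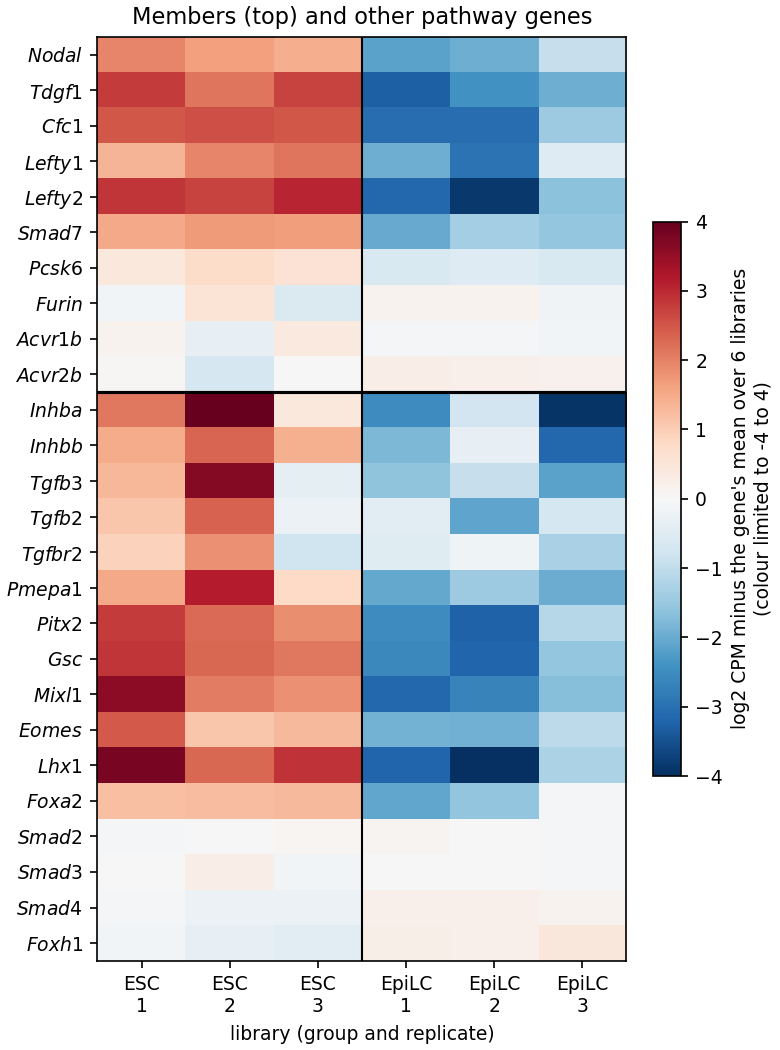
Log2 CPM (counts scaled to library size) of the 10 genes (above the line) and of other pathway genes (below it) in each library, each gene centred on its mean over the 6 libraries, with red above and blue below the mean and the colour limited to -4 to 4. EpiLC replicate 3 is the least blue EpiLC library for Nodal, Tdgf1, Cfc1, Lefty1 and Lefty2, and ESC replicate 2 is the reddest for Inhba, Inhbb, Tgfb3, Tgfb2, Tgfbr2 and Pmepa1.

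A wider list of 45 other genes of the pathway was read by role. Of the 43 tested, 17 were lower and 7 higher in EpiLCs, 55.8% in either direction against 45.4% of all genes tested, and 19 did not pass the test. Without EpiLC replicate 1, 2 or 3 the lower genes numbered 12, 13 and 14 in turn, and the higher genes 6, 5 and 6. Without both ESC replicate 2 and EpiLC replicate 3 there were 15 lower and 8 higher genes. Myostatin (Mstn) was listed at 0 in all libraries, and the second type I receptor for Nodal, Acvr1c, was listed at 0 in all but EpiLC replicate 1 (0.0100 TPM). The median log2 fold change of the 43 genes was -0.31.

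Among 9 other ligands tested, 6 were lower and 1 was higher. The higher gene, Gdf1, which encodes a partner of Nodal, had a log2 fold change of 1.59 (edgeR, adjusted p = 0.0364), and its call was lost, at folds of similar size, without ESC replicate 2 (1.44, adjusted p = 0.0681) or EpiLC replicate 3 (1.51, adjusted p = 0.0977). The counts of Gdf1 were not whole numbers in 5 of the 6 libraries, so its values rest on the division of shared reads, as for the Lefty genes. Tgfb2, among the 6, had a log2 fold change of -2.37 and lost its call without the same libraries (-1.51, adjusted p = 0.0581, and -2.47, adjusted p = 0.0821), and Gdf11 became higher without ESC replicate 2 (log2 fold change 0.72, edgeR, adjusted p = 0.0332). Inhba, the subunit of activin A, was at 11.1, 64.9 and 3.42 TPM in ESCs and at 0.440, 1.58 and 0.150 TPM in EpiLCs. It fell by 5.22 on the log2 scale (edgeR, adjusted p = 0.0158), and its call was lost, at folds of similar size, without EpiLC replicate 1 (-4.96, adjusted p = 0.0657) or EpiLC replicate 3 (-4.76, adjusted p = 0.0564). Inhbb, the subunit of activin B, was at 5.16, 9.20 and 4.82 TPM in ESCs and at 0.510, 1.51 and 0.180 TPM in EpiLCs, a fall of 3.17 (edgeR, adjusted p = 0.00911). Tgfb3 fell by 3.94 (edgeR, adjusted p = 0.0195) and lost its call without any 1 of the EpiLC libraries (log2 fold changes from -4.34 to -3.69, adjusted p from 0.0527 to 0.0741). All 3 were highest in ESC replicate 2, as were the fibroblast markers. Without EpiLC replicate 2 the log2 fold changes were -6.47 for Inhba and -4.22 for Inhbb. Without ESC replicate 2 Inhba fell by 3.37, Inhbb by 2.82 and Tgfb3 by 2.23 (edgeR, adjusted p from 0.0137 to 0.0173). The part of the feeders in their ESC levels was not tested.

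Of 6 genes for signalling SMADs and proteins that bind them, 3 were higher in EpiLCs and the others did not pass the test. SMAD2 and SMAD3 are the receptor-regulated SMADs of the pathway, and their genes did not pass the test, with log2 fold changes of 0.00 for Smad2 (interval -0.18 to 0.18, edgeR, adjusted p = 0.996) and -0.09 for Smad3 (interval -0.35 to 0.17, adjusted p = 0.547). Smad4, the common partner, rose by 0.35 (edgeR, adjusted p = 0.00795). Foxh1, the DNA-binding partner of SMAD2 and SMAD3, was at 90.5, 77.3 and 70.7 TPM in ESCs and at 118, 117 and 135 TPM in EpiLCs and rose by 0.58 (edgeR, adjusted p = 0.00571). Trim33, which binds SMAD2, SMAD3 and SMAD4, rose by 0.97 (edgeR, adjusted p = 9.30e-05). Of the other receptors, Acvr2a stood at 8.04 to 10.0 TPM in ESCs and 8.85 to 10.8 TPM in EpiLCs, and only the co-receptor of TGF-beta, Tgfbr3, passed the test. It fell by 0.92 (edgeR, adjusted p = 0.0287), with the call lost without ESC replicate 1 or EpiLC replicates 1 or 2 (log2 fold changes from -0.89 to -0.73, adjusted p from 0.0835 to 0.0931).

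Of 6 other antagonists, 0 passed edgeR's test over all 6 libraries. Cer1 and Tmeff1 were the 2 with an unadjusted p under 0.05, and both passed with DESeq2 (log2 fold changes of -2.64, adjusted p = 0.0328, and -0.23, adjusted p = 0.0271). Cer1, a secreted inhibitor of Nodal and BMP, also passed in edgeR without ESC replicate 2 (log2 fold change -2.96, adjusted p = 0.0411), without EpiLC replicate 3 (-3.99, adjusted p = 0.0410) and without both (-4.30, adjusted p = 0.0267). Tmeff1 passed in edgeR without ESC replicate 2 (adjusted p = 0.0350). Of 9 other intracellular inhibitors, 3 were lower and 2 higher. Smurf1, among the lower genes at -0.31, lost its call without EpiLC replicate 3 (-0.27, edgeR, adjusted p = 0.0784), and Ski became higher without ESC replicate 2 (log2 fold change 0.34, edgeR, adjusted p = 0.0165). Pmepa1, a target of TGF-beta signals that sequesters SMAD2 and SMAD3, fell by 3.98 (edgeR, adjusted p = 0.00307) and was highest in ESC replicate 2, at 48.4 TPM against 15.7 and 9.41. Without that library it fell by 3.02 (edgeR, adjusted p = 4.35e-04). The DNA-binding repressors Tgif1 and Tgif2 changed little and in opposite directions, with log2 fold changes of -0.32 and 0.57 (edgeR, adjusted p = 0.00547 and adjusted p = 0.0105). Of the other 2 convertases, Pcsk5 fell by 4.49 (edgeR, adjusted p = 1.45e-04), from 9.38, 6.53 and 6.69 TPM to 0.450, 0.190 and 0.370 TPM, while Pcsk7 had a log2 fold change of -0.06 (adjusted p = 0.785).

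Of 7 genes known as targets of Nodal in the embryo, 6 were lower in EpiLCs. The largest falls were those of Lhx1 (-5.65, edgeR, adjusted p = 0.00181), Mixl1 (-5.17, adjusted p = 0.00107) and Gsc (-5.12, adjusted p = 4.66e-04), transcription factors of the streak and of the tissues it forms. EpiLC replicate 3 was the highest EpiLC library for each of the 6 that fell, as it was for Nodal. Mixl1, Gsc and Eomes are also among the streak markers that set this library and ESC replicate 1 apart. Their high values there are thus in part the same observation. Foxa2 is also on the list of primitive endoderm markers. Without EpiLC replicate 3 the log2 fold changes were -7.02 for Lhx1, -5.69 for Mixl1 and -5.88 for Gsc. ESC replicate 1 was the highest ESC library for these 3 genes, and without it the values were -5.15 for Lhx1, -4.40 for Mixl1 and -4.88 for Gsc, all still called by edgeR. The exception was Otx2, which Nodal signalling helps to maintain in the epiblast but which is also a marker of the formative state, and which rose by 1.87 (edgeR, adjusted p = 0.00110).

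**Figure D4:**
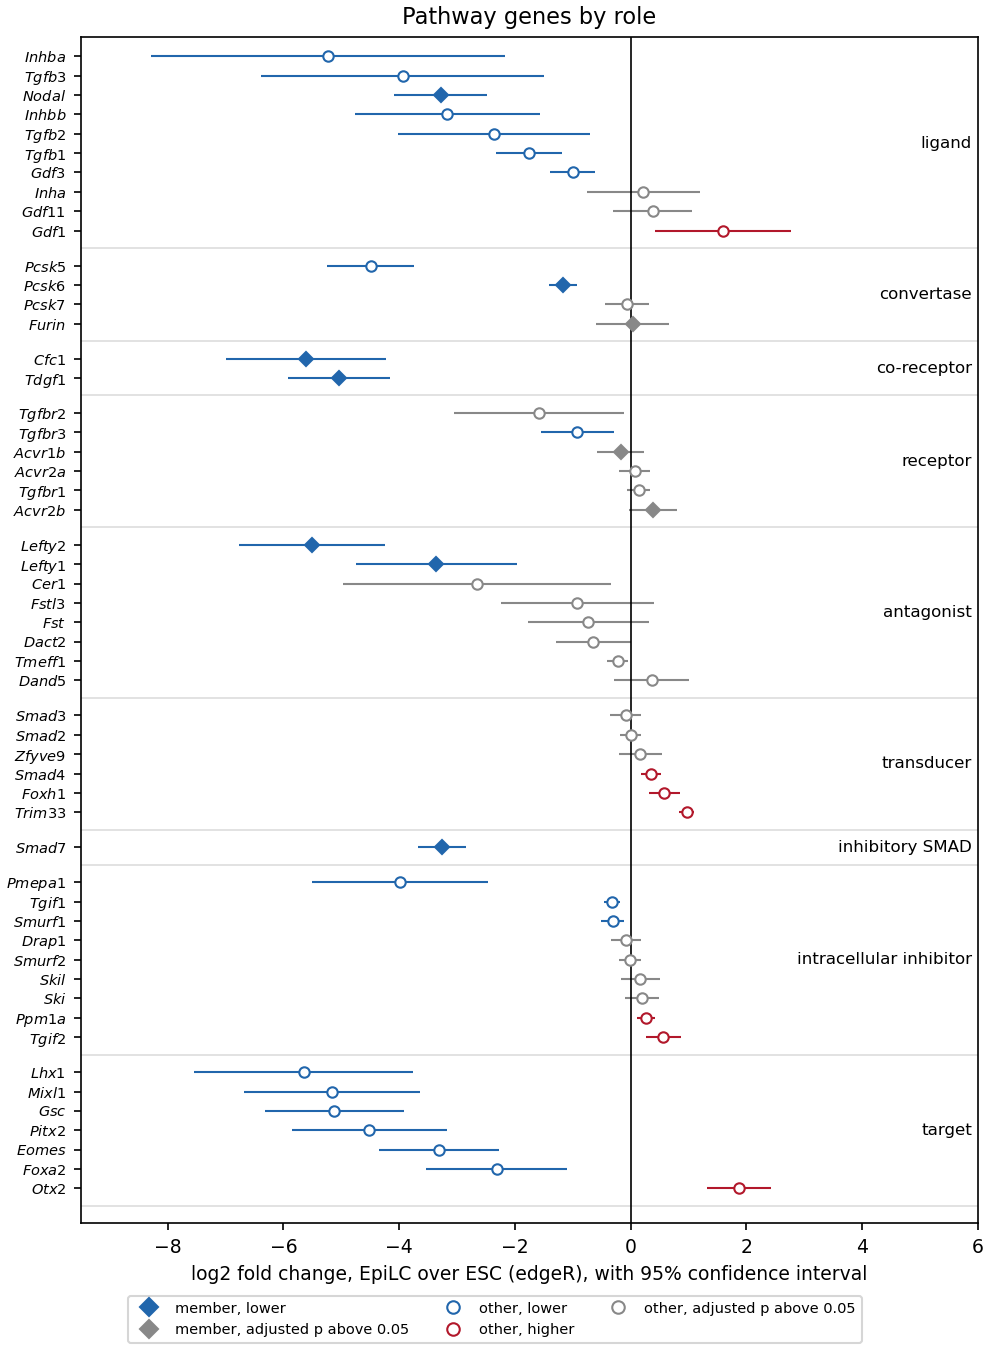
Log2 fold changes of EpiLCs over ESCs (edgeR, n = 3 per group) with 95% confidence intervals for the 10 genes (filled diamonds) and the 43 other pathway genes tested (open circles), grouped by role, with blue lower, red higher and grey not past an adjusted p of 0.05. Ligands, co-receptors, Lefty genes and targets lie mostly to the left. Genes labelled transducer, which are signalling SMADs and proteins that bind them, lie near 0 or to its right. Acvr1b and Acvr2b have intervals that include 0.

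The genes whose pattern over the 6 libraries was most like that of Nodal were found by the root mean square difference of centred log2 CPM, among the 9202 genes whose mean was 10 CPM or more. They were Stard8 (0.267), Wnt3 (0.267), Chst15 (0.278), Hes1 (0.291) and Eomes (0.330), with the difference in log2 units in parentheses. Wnt3 was at 30.4, 15.7 and 12.0 TPM in ESCs and at 1.19, 1.34 and 3.37 TPM in EpiLCs, and like Nodal it was highest in replicate 1 of the ESCs and replicate 3 of the EpiLCs. Of the 10 genes, Smad7 came closest to Nodal (0.403, place 17 of 9202), followed by Lefty1 (0.594, place 70). Tdgf1 was at place 213 and Lefty2 at place 546, and both had a lower log2 fold change than Nodal. The likeness rests mainly on the difference between the 2 states, which all of these genes share.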

How the data were processed

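Poly(A) RNA of 3 ESC and 3 EpiLC libraries was read as strand-specific single ends of 76 nt. Per the submitters' notes and the methods, the authors trimmed reads with cutadapt 1.16, mapped them with STAR 2.5.2a to mm10 and summed them over genes with RSEM 1.3.0, and they tested with DESeq2 1.16.1. The authors deposited expected counts, in which RSEM divides reads shared by several genes and which are not normalized, and TPM scaled to transcript length and library. The labels and the results text give 48 h for EpiLCs and the culture methods 72 h.

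After rounding to whole numbers, expected counts were normalized by TMM (factors from 0.979 to 1.02), filtered with filterByExpr, which left 14468 of 24736 genes, and tested with edgeR 4.0.16 in R 4.3.3 with Benjamini-Hochberg adjustment over all genes tested. Totals per library set a floor of 3 counts at 0.0855 to 0.177 CPM, for counting error only. Replicates of a group differed by more than sampling noise (chi-square per degree of freedom from 6.89 to 75.6). The labels name no batches. Ratios were compared with exact permutation tests. Alternatives were DESeq2 1.42.0, limma 3.58.1 on log2(TPM + 1) and log2(TPM + 0.1), upper-quartile factors, other filters, a replicate block and left-out libraries. The edgeR, DESeq2 and limma fits were tested on simulated data.

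The 10 genes and all lists were chosen with earlier results of these data known. Named beside the 10 genes were up to 3 called genes per role with the largest absolute log2 fold change, 5 genes most like Nodal and markers beside a result. Acvr1c, Acvr2a, Cer1, Gdf1, Gdf11, Mstn, Otx2, Pcsk7, Ski, Smad2, Smad3, Smurf1, Tgfb2, Tgfbr2 and Tmeff1 fall outside that rule and were named after their values were seen. Marker lists held 9 naive, 6 formative, 3 pluripotent, 12 fibroblast, 10 primitive endoderm and 9 primitive streak genes. Of the tested markers, 1 pluripotent gene was higher and 1 lower, 1 primitive endoderm gene was higher and 7 lower, and 7 primitive streak genes were lower.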

Additional observations from a re-analysis of the deposited data

How the results depend on the processing

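The 7 genes that fell kept their direction and their call under every alternative that tested them, with log2 fold changes from -3.78 to -3.05 for Nodal, -5.54 to -4.74 for Tdgf1, -7.13 to -3.19 for Cfc1, -4.27 to -2.94 for Lefty1, -6.48 to -5.03 for Lefty2 (-4.54 for the summed counts of both), -3.40 to -2.88 for Smad7 and -1.26 to -1.03 for Pcsk6. Cfc1 was not tested where 10 counts were required in every library, which left 6 lower genes. Leaving out 1 library at a time moved Acvr1b between -0.34 and 0.013 (its call was gained at -0.34, without ESC replicate 2, and its sign turned to 0.013 without ESC replicate 3), Acvr2b between 0.19 and 0.50 (called at 0.19, without ESC replicate 2) and Furin between -0.18 and 0.39 (-0.04 without ESC replicate 1, -0.18 without ESC replicate 3, -0.0067 without EpiLC replicate 2). The number of the 10 genes that were higher then lay between 0 and 1. Over all genes it left 2144 to 3572 higher and 2100 to 3609 lower, with the lowest counts without EpiLC replicate 1. The cause of these moves was not tested. The replicate numbers are shared by the labels only. Deviations of same-numbered libraries correlated at 0.0067, 0.19 and 0.17 across genes, and not every library correlated best with its own number. With the replicate block 7 of the 10 genes were lower and 0 higher (edgeR), and 2979 and 3106 genes were higher and lower over all, and of the other pathway genes Tgfb2 lost its call (adjusted p = 0.0845) while Cer1 (adjusted p = 0.0193) and Tgfbr2 (adjusted p = 0.0164) gained one. The difference of the Tdgf1 to Cfc1 log2 ratio (0.29) became -1.77 with 1 TPM added, 1.15 on rounded counts and lay between -0.10 and 0.63 with 1 library left out (-0.10 without EpiLC replicate 2), as Cfc1 had 1 read in each of EpiLC replicates 1 and 2. That of Acvr1b to Acvr1c (-0.13) rests on the value added, since Acvr1c was listed at 0 in all but EpiLC replicate 1, and was -0.97 on rounded counts and between -0.33 and 0.026 with 1 library left out (0.026 without ESC replicate 3). The call of Tgfb3 was also lost with limma on log2(TPM + 1) and without both ESC replicate 2 and EpiLC replicate 3. Among the 10 genes, Cfc1 alone had under 10 counts in any library.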
